A study of Mus musculus with 20 samples.

Results

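Epidermal cells that had been cultured from a distal memory region of mouse skin were compared with cells cultured from a control region that the labels call non-memory, both 8 weeks after a first wound going by the sample titles. The comparison holds 4 of the 20 libraries of the study: 2 of cultured distal memory cells and 2 of cultured control cells. The assay was ATAC-seq: Tn5 transposase cuts accessible DNA and leaves sequencing adapters at the cuts. All mice carried Lrig1CreER and Rosa-TdTomato, so that a red fluorescent protein marks cells in which the Lrig1 promoter drove Cre recombinase, together with their descendants. The sorted cells are labelled Lrig1 GL and Sca1+, Sca1 being the surface antigen that Ly6a encodes. The labels do not state how far the distal region lay from the wound, how long the cells were cultured, how many animals were used or whether the 2 libraries of a group came from separate animals or cultures. The other 16 libraries come from epidermis that the labels do not describe as cultured, called fresh here. They cover homeostasis, skin at 1 and at 8 weeks from a first wound, skin at 1 week from a second one, vehicle, UVB, wound with UVB, and PRT4165, an inhibitor of the Polycomb complex PRC1.

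Open chromatin marks promoters and enhancers that transcription factors can reach. After a wound, hair follicle and epidermal stem cells are known to keep some enhancers open long after the skin has healed, a state described as epigenetic memory of injury, with stress-responsive AP-1 factors among those linked to it. Culture itself exposes keratinocytes to growth factors and to a wound-like state. The comparison asks which regions were open in cells from the distal memory region and not in cells from the control region when both had been grown outside the animal.

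The deposited data are 1 list of peaks for each group, and both libraries of the group went into it. Replicates could therefore not be compared, and no difference below carries a replicate error or a test of significance. The list of cultured distal memory cells held 81432 peaks, which merged into 45714 regions covering 28.3 Mb. The list of cultured control cells held 93513 peaks in 54188 regions covering 32.9 Mb. A region of the distal memory list is called gained when no control region overlaps it by at least 1 bp, and a region of the control list is called lost when no distal memory region overlaps it. The authors' signal value of the strongest peak, a measure of enrichment, ranks the regions within a list. Intervals in square brackets are Wilson 95% intervals and cover counting error only, since regions of a list are not replicates.

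The 2 lists overlapped in most of their regions, and the differences lay at weak regions. Cultured distal memory cells had 3473 gained regions, 7.6% of their list [7.36 to 7.84], and 42241 regions shared with the control list. Cultured control cells had 12005 regions that were lost in distal memory cells, 22.2% of the control list [21.8 to 22.5]. The excess of lost regions cannot be told apart from the greater length of the control list. When the control list was shortened to its 45714 strongest regions, 7069 regions were gained and 7334 were lost, 15.5% and 16% of lists of the same length. Near-equal counts come by construction when lists of equal length overlap almost region for region. Regions gained at equal length include those that overlap a control region left out by the cut. Of the 57190 merged regions of either list, 41712 were shared.

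Single promoters that lay in an open region of 1 list alone are given as examples and do not stand for their class. The 250 bases before the transcription start are given from RefSeq for the GRCm38.p6 assembly, the assembly of mm10, from 5′ to 3′ in the direction of the gene. Capitals mark the GC box (GGGCGG), a binding site of Sp factors, the CCAAT box (CCAAT), bound by NF-Y, the AP-1 motif (TGANTCA) and the ETS motif (CCGGAA), each on either strand. Slco4c1 and Hoxd1 had the strongest regions among genes open at their ends in distal memory cells alone, and Aldh1a2 had the strongest gained promoter region of a named protein-coding gene that no fresh list held. Dnajb3 had the strongest region among genes open at their ends in control cells alone, while Cp and Spata6 are lost promoters with an AP-1 motif that no fresh list held. Cp and Spata6 were picked for that motif, which 11.6% of promoters open in control cells alone hold. Their GC content, 38.3% and 45%, lies below the median of 57.7% of those promoters. Gzmb, not shown, is another lost promoter of this kind, and Fer1l4, not shown, is a gained promoter with the motif.
Slco4c1 (chr1:96872172-96872421, minus strand): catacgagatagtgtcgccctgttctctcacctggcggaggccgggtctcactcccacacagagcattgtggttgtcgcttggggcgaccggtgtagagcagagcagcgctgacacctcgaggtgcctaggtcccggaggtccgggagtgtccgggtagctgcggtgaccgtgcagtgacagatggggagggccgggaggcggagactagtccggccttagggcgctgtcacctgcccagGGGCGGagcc
Hoxd1 (chr2:74762730-74762979, plus strand): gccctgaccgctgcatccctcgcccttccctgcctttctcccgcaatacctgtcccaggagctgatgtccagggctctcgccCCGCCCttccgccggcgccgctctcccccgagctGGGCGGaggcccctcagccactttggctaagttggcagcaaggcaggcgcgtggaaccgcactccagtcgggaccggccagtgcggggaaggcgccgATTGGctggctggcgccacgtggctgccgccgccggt
Aldh1a2 (chr9:71215539-71215788, plus strand): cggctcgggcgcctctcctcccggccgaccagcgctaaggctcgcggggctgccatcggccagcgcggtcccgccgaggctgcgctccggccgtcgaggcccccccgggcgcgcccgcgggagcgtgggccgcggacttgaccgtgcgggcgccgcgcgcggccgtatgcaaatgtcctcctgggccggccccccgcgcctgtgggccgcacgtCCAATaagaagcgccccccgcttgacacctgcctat
Dnajb3 (chr1:88205749-88205998, minus strand): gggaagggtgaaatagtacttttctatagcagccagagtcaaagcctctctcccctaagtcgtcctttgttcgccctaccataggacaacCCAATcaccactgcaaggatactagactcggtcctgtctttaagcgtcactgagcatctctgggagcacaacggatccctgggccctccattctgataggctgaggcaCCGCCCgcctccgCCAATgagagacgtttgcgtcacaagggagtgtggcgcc
Cp (chr3:19956804-19957053, plus strand): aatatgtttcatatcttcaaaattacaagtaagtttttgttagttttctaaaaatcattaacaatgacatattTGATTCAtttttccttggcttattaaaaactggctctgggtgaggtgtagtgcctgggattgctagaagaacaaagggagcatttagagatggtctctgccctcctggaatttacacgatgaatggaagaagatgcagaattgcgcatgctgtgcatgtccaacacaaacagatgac
Spata6 (chr4:111777347-111777596, plus strand): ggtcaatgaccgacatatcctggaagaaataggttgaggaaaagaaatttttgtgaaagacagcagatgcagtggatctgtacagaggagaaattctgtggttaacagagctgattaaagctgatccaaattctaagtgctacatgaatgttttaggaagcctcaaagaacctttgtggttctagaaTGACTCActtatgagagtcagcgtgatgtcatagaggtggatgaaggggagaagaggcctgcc

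Slco4c1 encodes an organic anion transporter, Hoxd1 a homeobox transcription factor of the HoxD cluster, and Aldh1a2 an enzyme that makes retinoic acid. The gained region over the Slco4c1 promoter had a signal value of 13.1 in distal memory cells and was held by 5 of the 8 fresh lists. That over Hoxd1 had 12.5 and was held by 6 fresh lists, and that over Aldh1a2 had 9.02 and was held by 0. Among lost promoters, Dnajb3, which encodes a heat shock protein co-chaperone, had a signal value of 14.5 in control cells and was held by 8 fresh lists. Cp encodes ceruloplasmin, a copper-carrying ferroxidase, and its region had 11.6. Spata6, a gene of sperm development, had 10.9.

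Across 32851 RefSeq promoters, each running from 250 bases before to 50 after a start, 191 (0.581%) overlapped a region of the distal memory list alone and 653 (1.99%) a region of the control list alone, against 12276 in both lists. Promoters open in 1 list alone were poorer in the sequence features of housekeeping promoters than those open in both. The median GC content was 58.0% for promoters of the distal memory list alone and 57.7% for those of the control list alone, against 62.0% for promoters open in both lists. The GC box occurred in 47.6% of promoters in the distal memory list alone, in 51.1% of those in the control list alone, in 68.3% of those in both and in 35.7% of all promoters. The ETS motif occurred in 17.8% of the distal memory promoters, in 14.1% of the control promoters, in 29.6% of those in both and in 14.9% of all.

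The AP-1 motif was less frequent in promoters open in both lists than in all promoters. It was found in 8.90% of promoters open in distal memory cells alone [5.63 to 13.8] and in 11.6% of those open in control cells alone [9.40 to 14.3], against 5.65% of promoters open in both, 9.03% of those open in neither and 7.81% of all. The intervals of the distal memory and the control promoters overlap, and that of the distal memory promoters holds each of the other shares. The CCAAT box occurred in 33.0% of the distal memory promoters, 29.1% of the control promoters, 38.6% of those in both and 37.4% of all. A match is a description of the letters in these windows, not a measured binding site.

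Gained and lost regions were alike in strength, width and position, and both differed from shared ones. The median signal value was 6.33 in gained and 6.21 in lost regions, while shared regions had medians of 9.96 in the distal memory list and 10.5 in the control list. Median width was 304 bp for gained and 344 bp for lost regions, against 579 bp for shared regions in the distal memory list. A summit lay within 1 kb of a gene end in 9.67% of gained and in 8.70% of lost regions, against 25.8% of shared regions in either list. Regions found in 1 culture alone lay mostly away from gene ends. In the weakest decile of the distal memory list 21.5% of regions were gained, and in the 2 strongest deciles 0 were. In the weakest decile of the control list 55.6% of regions were lost, and in the strongest decile 1 of 5419 was.

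**Figure D1:**
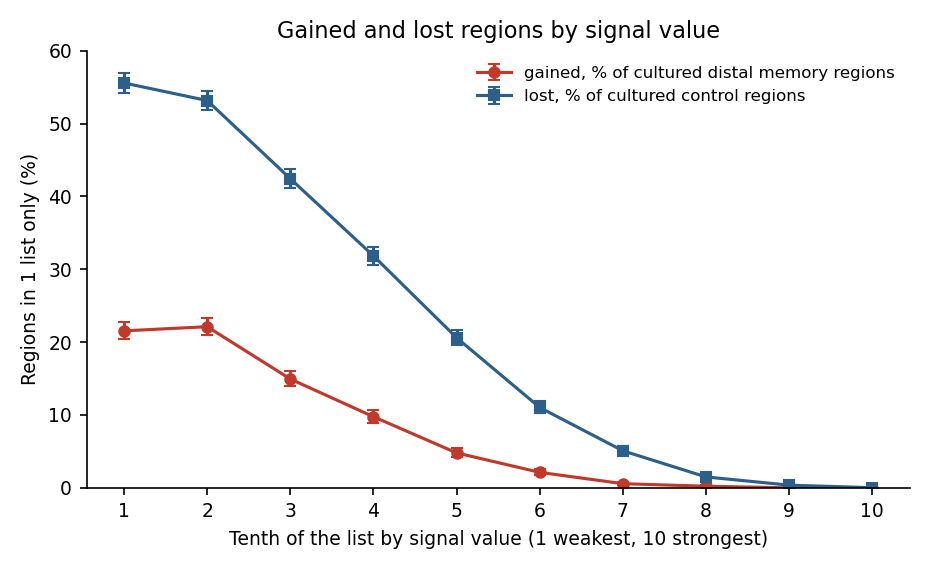
Share of regions present in 1 cultured list alone (vertical axis, percent) by decile of the authors' signal value within each list (horizontal axis, 1 weakest to 10 strongest); circles show gained regions as a share of the distal memory list, squares lost regions as a share of the control list, and bars Wilson 95% intervals for counting error. Gained shares reach 0 in the 2 strongest deciles, and lost shares run from 55.6% in the weakest decile to 0.0185% in the strongest.

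Strong regions that the other list lacked altogether were few. Of the distal memory regions above the median signal value, 133 were gained, 3.83% of all gained regions. Of the control regions above the median, 974 were lost, 8.11% of all lost regions. The strongest gained region lay within Pla2g4c, a cytosolic phospholipase gene, at chr7:13330402-13330905, with a signal value of 13.5 and no match in any fresh list. Next came a region 11172 bp from Sf3b5, a splicing factor gene, at chr10:12996855-12997414 with 13.2, which 8 fresh lists held. A region 60238 bp from Ndufa10, a gene of respiratory complex I, had 13.1 and was found in the UVB list alone of the fresh lists.

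No fresh list held the 3 strongest lost regions, while 8 fresh lists held the next one, on chromosome 8, which had a signal value of 16.7 in control cells. A region 4667 bp from Mbd2, which encodes a reader of methylated DNA, at chr18:70633597-70633972 had a signal value of 17.3 in control cells. A region 17307 bp from Alcam, a cell adhesion gene, at chr16:52470180-52470544 had 17.1. The region near Dynap at chr18:70226271-70226834 had 16.7. The Mbd2 and Dynap regions both lie on chromosome 18, and neighbouring regions of a chromosome are not independent.

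Most of the lineage and keratin genes named here had regions at their ends in both lists. Lrig1, a brake on receptor tyrosine kinases and the gene that drove Cre, had a signal value of 15.2 in distal memory and 16.6 in control cells. Ly6a had 8.68 and 8.39. Krt14, a keratin of the basal layer, had 6.47 in distal memory and 5 in control cells, and its partner Krt5 had 3.18 and 4.58 at 2 regions that do not overlap, 1 gained and 1 lost. Krt10, the keratin of differentiating layers, had 10.4 in distal memory and 11.8 in control cells, whereas a region at Krt1, its partner, was found in the distal memory list alone, with 6.05. Krt6a, induced by wounding and culture, had 5.95 and 5.17. Trp63, which encodes the master regulator p63, had no region within 1 kb of its ends in either list but 11 regions in the distal memory and 13 in the control list.

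Markers of other cell types were open at gene ends in like number in both lists. For comparison, 11604 of 21883 protein-coding genes had a region at a gene end in both lists. Against that background few fibroblast and T cell markers were open, while the share of Merkel cell markers in control cells came near it. These marker lists are short. In distal memory and control cells, 2 and 1 of 12 fibroblast markers had a region at a gene end, 2 and 2 of 8 endothelial markers, 1 and 1 of the 9 T cell markers in the reference, 3 and 3 of 9 myeloid and Langerhans cell markers, 2 and 3 of 8 melanocyte markers, and 2 and 3 of 6 Merkel cell markers. Signal values at these ends ran from 6.52 at Cd74 to 19.4 at Mitf in distal memory cells. In control cells they ran from 5.20 at Mlana to 21.4 at Mitf. The highest lay above those of the keratins named, so the strength of single gene ends does not set these markers apart. Whether other cells contributed to single regions was not tested.

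Genes with regions at their ends in 1 list alone were rare. Of 21883 protein-coding genes, 11604 had a region within 1 kb of a gene end in both lists, 178 (0.813%) in the distal memory list alone and 623 (2.85%) in the control list alone. In distal memory cells the 4 strongest were Slco4c1 and Hoxd1, Efcc1 with a signal value of 10.1, and Cr2, a complement receptor gene, with 9.56. In control cells they were Dnajb3, the cornified envelope gene Lce1f with 13.3, the ciliary gene Ccdc39 with 12.4, and Cog6, a gene of Golgi transport, with 12.2. Some listed genes were found at lower levels on either side. Fn1, the fibronectin gene, had 7.36 and Cdk6, a kinase of the G1 phase, 6.46 in distal memory cells alone. Pparg, the regulator of sebocyte and fat cell differentiation, had 9.47 and S100a8, an alarmin of inflamed epidermis, 6.76 in control cells alone.

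Genes that gained regions in distal memory cells gained few each. Of 15512 genes with a region within 100 kb, 1281 (8.26%) had more gained than lost regions and 5887 (38%) more lost than gained ones. With lists of equal length, where gained and lost regions are near equal in number by construction, these shares were 21.6% and 22.5%. Osbpl8, a lipid transfer gene, had the highest balance, with 4 gained and 0 lost regions. Of its 13 regions in distal memory cells, the gained ones had signal values of 5.78 to 10.6 and the 9 shared ones 7.54 to 20.5. These genes gained 3 and lost 0: Cracd, the SNARE gene Stx7, Podxl, Calcoco1, the kinase gene Prkx, the lysosomal amino acid transporter gene Slc38a9, and Dsp, which encodes the desmosomal linker desmoplakin. The gained Dsp regions had signal values of 5.31 to 8.08 and were held by 6 to 8 of the fresh lists, and those of Osbpl8 by 0 to 2. Several of these balances rest on distant regions. With genes within 20 kb, Osbpl8, Calcoco1 and Slc38a9 had 1 gained region each, Podxl and Dsp 2, and Cracd, Stx7 and Prkx 3.

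The lowest balances lay between -13 and -8. A balance is a difference of counts, so genes with many regions can reach lower values. Over all genes, 21.9% of control regions were lost. Nedd4l, a ubiquitin ligase gene that controls epithelial sodium channels, had 0 gained regions and lost 13 of 38 control regions. The lost Nedd4l regions had signal values of 4.43 to 11.1 in control cells. Macrod2 had 2 gained regions and lost 13 of 45, Etl4 had 2 and lost 12 of 30, and the axon guidance receptor gene Robo2 had 1 and lost 11 of 21. Pard3, a gene of epithelial polarity, had 2 gained regions and lost 10 of 20. Pdzd2 lost 9 of 20 and Trim2 lost 9 of 24, both with 0 gained, and Gramd3 lost 8 of 11 with 0 gained. These 8 genes kept more lost than gained regions with lists of equal length, Robo2 with 2 gained and 11 lost, Nedd4l with 1 and 6.

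Gene lists of skin biology followed the background of all genes for the most part. Over all genes, 7.49% of distal memory regions were gained and 21.9% of control regions were lost. The interval of the lost share held this background for 25 of 27 lists, and that of the gained share for 23. In 26 of 27 lists more regions were lost than gained, the exception being T cell markers with 2 gained and 1 lost. With lists of equal length, 18 lists had more gained, 5 more lost and 4 the same number. The direction of a list thus turns with list length. This turn comes by construction, since the weakest control regions are left out.

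Wnt signalling, which maintains follicle stem cells and the basal layer, had a lost share above that of all genes. Of the 151 control regions of its 25 genes, 47 were lost, 31.1% [24.3 to 38.9], and of 117 distal memory regions 13 were gained, 11.1% [6.61 to 18.1]. Lost regions outnumbered gained ones in 17 genes, gained ones in 3. The ligand gene Wnt7b had 12 regions in distal memory cells, 0 of them gained, and lost 7 of 19 control regions, with signal values of 3.70 to 5.77. The transcription factor gene Tcf7 had 1 region in distal memory cells and lost 4 of 5. The receptor gene Ror2 lost 4 of 7 with 1 gained, and Rnf43, a ligase gene that removes Wnt receptors, lost 3 of 6 with 0 gained. At gene ends, Wnt7b, Tcf7, Wnt4 and Lef1 had a region in control cells alone, with signal values of 5.77, 6.03, 3.14 and 4.13, and 16 Wnt genes had one in both lists. Over all protein-coding genes, 2.85% had a region at a gene end in control cells alone. With lists of equal length, 26 of 117 distal memory regions of Wnt genes were gained, 22.2%, and 21 of 112 control regions lost, 18.8%. Over all genes these shares were 15.7% and 15.6%. Regions gained at this length include those whose control regions were cut away.

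AP-1 and immediate early genes, the first to respond to wounding and growth factors, lost few regions. Of 126 control regions of their 19 genes, 14 were lost, 11.1% [6.73 to 17.8], and of 117 distal memory regions 6 were gained, 5.13%. Of these genes, 17 had a region at a gene end in both lists and 0 in 1 list alone. In lists of equal length 5 of 91 control regions of these genes were lost, 5.49%, against 15.6% over all genes, and 30 of 117 distal memory regions were gained, 25.6%, against 15.7%. The cut left 91 of the 126 control regions of these genes, a smaller part than over all genes, where it left 41830 of 49886. Regions gained at equal length thus include ones that overlap a control region left out.

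Hox genes, which set positional identity along the body, and bulge genes had higher shares of gained regions. Of 52 distal memory regions of the Hox clusters, 9 were gained, 17.3% [9.38 to 29.7], and 10 of 53 control regions were lost, 18.9% [10.6 to 31.4]. The HoxB cluster had 5 gained regions and lost 2, HoxD had 2 and lost 2, and HoxA and HoxC each had 1 and lost 3. Of the gained HoxB regions, 2 lay within Hoxb3 and 1 lay 358 bp from Hoxb6, and the others lay 39621 bp from Hoxb1 and 36220 bp from Hoxb9, with signal values of 4.89 to 8.81 over these regions. The lost ones lay 272 bp from Hoxb5 and 39 bp from Hoxb7, with 6.24 and 3.74. At equal list length 21 of 52 distal memory regions of the Hox clusters were gained, 40.4%, and 2 of 33 control regions lost, 6.06%. Over all genes these shares were 15.7% and 15.6%. The cut left 33 of the 53 Hox control regions, against 41830 of 49886 over all genes. Regions gained at this length include those whose control regions were cut away, so they do not show more gains in distal memory cells. Neighbouring Hox genes share regions and are not independent. For the bulge and lower follicle list, 17 of 101 distal memory regions were gained, 16.8% [10.8 to 25.3], and 25 of 109 control regions were lost, 22.9%. Lgr5, a stem cell marker of the lower follicle, was the member with the largest balance, with 1 gained region and 5 lost of 8.

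Small lists of other cells also departed from the gained background on few regions: 4 of 17 fibroblast regions and 3 of 9 myeloid regions were gained. Counts for single epidermal genes read against 21.9% of control regions lost over all genes. Lrig1 had 0 gained regions and lost 6 of 21, with signal values of 2.95 to 8.40. Plet1, a marker of the follicle junction, lost 5 of 13. Among basal layer genes, Dst lost 5 of 22, Itga6 had 1 gained region and lost 5 of 12, and Trp63 had 3 gained regions with signal values of 7.81 to 8.61 and lost 6 of 13. At equal list length Lrig1 had 1 gained and 2 lost regions, Plet1 1 and 3, Dst 1 and 1, Itga6 1 and 2, and Trp63 3 and 3.

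**Figure D2:**
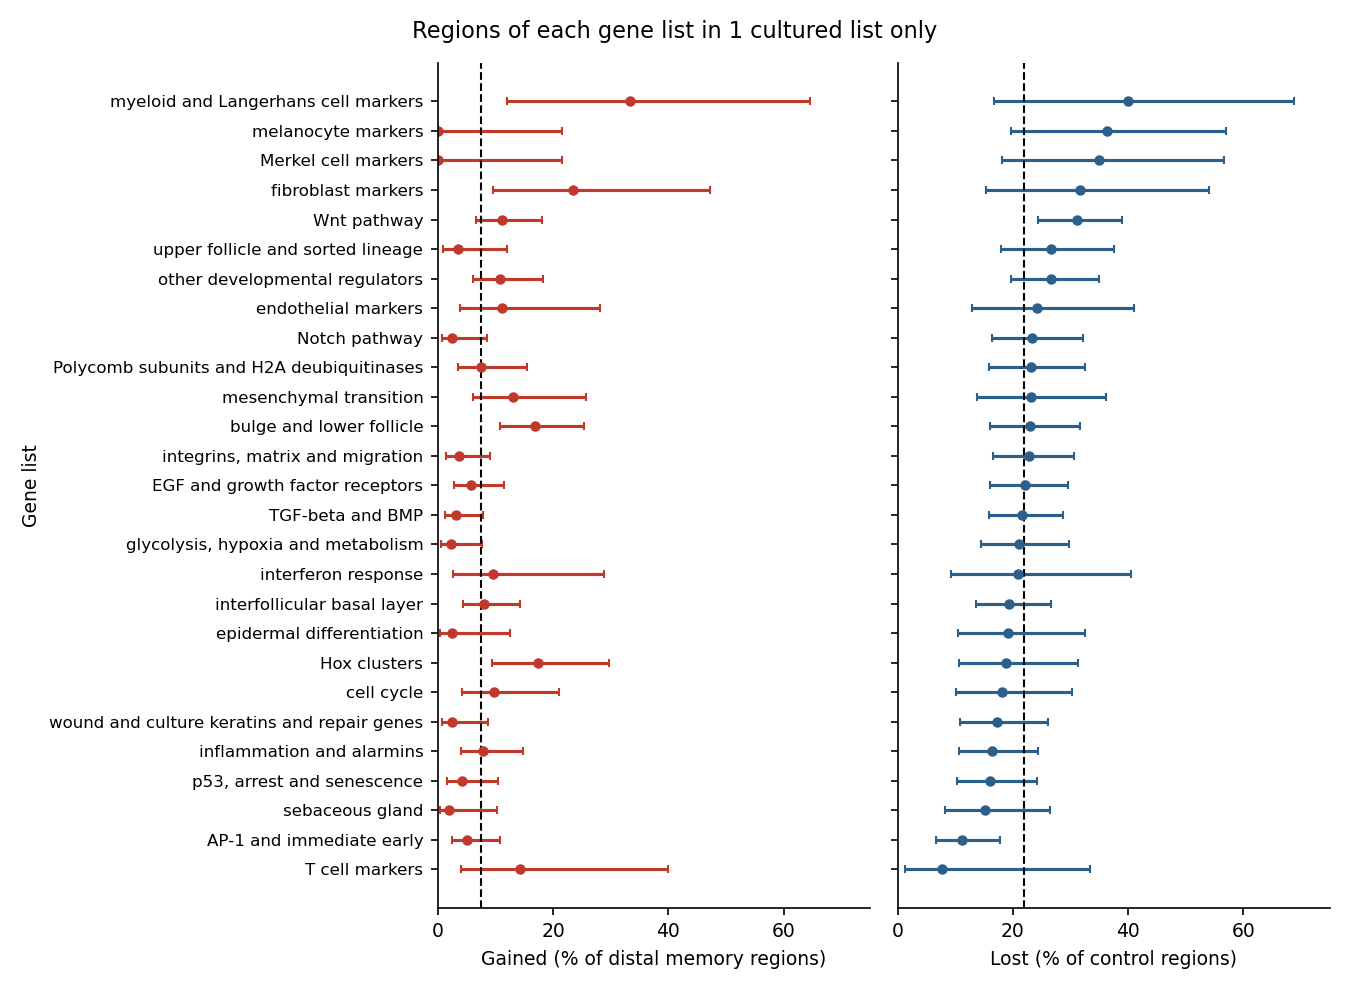
Regions of 27 gene lists that were present in 1 cultured list alone: gained regions as a percentage of the distal memory regions of the list (left) and lost regions as a percentage of its control regions (right). Points are shares, bars Wilson 95% intervals for counting error, and dashed lines the shares over all genes, 7.49% gained and 21.9% lost; most intervals cross the line, and the lost share of the Wnt pathway lies above it and that of AP-1 genes below.

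The members with the largest balances of other lists, picked by the size of that balance, are given beside the same 21.9% of control regions lost over all genes. The TGF-beta receptor gene Tgfbr2 lost 6 of 16 control regions with 0 gained, with signal values of 5.85 to 9.01. Met, the receptor of hepatocyte growth factor, lost 6 of 19 with 0 gained, with 4.27 to 9.64. Rybp, a subunit of variant PRC1, the complex that PRT4165 targets, lost 6 of 16 with 0 gained. Bmp7 lost 4 of 13, Notch2 4 of 11, Numb 4 of 7, Vcl 4 of 8, Ptgs2 4 of 20 and Meis2 4 of 9, each with 0 gained. Pmaip1, a p53 target gene, lost 4 of 11 and Ppargc1a, a regulator of mitochondria, 4 of 9, again with 0 gained. Igf1r, the receptor of insulin-like growth factor, had 2 gained regions and lost 6 of 19. Of the markers of other cells, Tyrp1 lost 3 of 3, Mitf 3 of 12 and Piezo2 3 of 10, each with 0 gained. Tnc, a matrix gene of wounds, had 1 gained region and lost 5 of 16. With lists of equal length, Tgfbr2 had 0 gained and 6 lost regions, Met 0 and 5, Vcl and Numb 0 and 4, Rybp, Meis2, Tyrp1 and Piezo2 0 and 3, Pmaip1, Mitf and Ptgs2 0 and 2, Ppargc1a 1 and 3, Notch2 1 and 2, Igf1r 3 and 4, and Tnc 2 and 3. The balance turned for Bmp7, with 2 gained and 1 lost, and for Wnt7b, with 3 and 1. With genes within 20 kb, Rybp, Bmp7 and Tyrp1 lost 1 region each, and Tnc, Ptgs2, Pmaip1 and Mitf 2. At that distance Vcl lost 3, Tgfbr2 4 and Met 5. Igf1r, Notch2, Numb, Meis2, Ppargc1a and Piezo2 kept their counts of lost regions.

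A balance of at least 2 more gained than lost regions was the exception among listed genes. Other listed genes gained more than 1 region but had a lower balance, such as Trp63 with 3 gained and 6 lost. Cxcl2, a neutrophil chemokine gene, had 4 regions in distal memory cells, 2 of them gained, and 2 in control cells, 0 of them lost. E2f3, a cell cycle factor gene, and Cdh5, an endothelial cadherin gene, had the same counts. Cbx6, a subunit of PRC1, had 2 gained regions and 0 in control cells, and Hoxb3 had 2 gained of 3. With genes within 20 kb, Cdh5 had 0 gained regions, E2f3 1, and Cxcl2, Cbx6 and Hoxb3 still 2.

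Regions shared by both cultures mostly kept their order of strength when each was ranked by its strongest peak. Over 41712 shared regions, the signal values of the lists correlated across regions with a Spearman rho of 0.936, given as a description, since regions of 1 library pair are not independent. Percentile ranks were taken among shared regions alone, so that both run over the same number. For 72.4% of regions the ranks differed by less than 10 points. A rise of 25 points or more in distal memory cells was seen in 558 regions (1.34%) and a fall of that size in 689 (1.65%). These values depend on how a region is summarised: with the median of its peaks in place of the strongest, 4021 rose and 3863 fell, and rho was 0.711. The signal value was higher in distal memory cells in 38.5% of shared regions, with medians of 10.03 in distal memory and 10.51 in control cells. The authors' −log10 p had medians of 81.9 and 116, and it was higher in distal memory cells in 8.75% of regions.

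**Figure D3:**
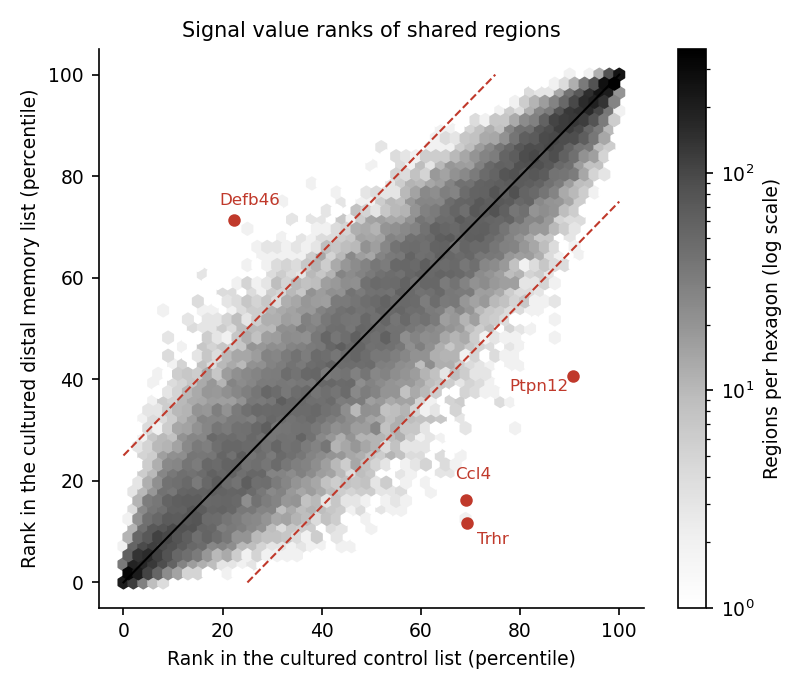
Percentile rank of the authors' signal value among 41712 shared regions in the distal memory list (vertical) and the control list (horizontal); grey hexagons give the number of regions on a log scale. The solid line marks equal ranks and the dashed lines a difference of 25 points, beyond which 558 regions lie above and 689 below; red points mark the Defb46, Ptpn12, Ccl4 and Trhr regions.

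Single shared regions changed rank by up to 69.1 points. The largest rise was at chr17:79476589-79477566, with no gene end within 100 kb, where the signal value was 13.5 in distal memory and 7.49 in control cells, a rise of 52.0 points, or of 34.1 with the median of its peaks. The next, on chromosome 8, also lay far from genes and rose by 49.8 points. A region within Defb46, a beta-defensin gene, had 13.0 in distal memory and 7.49 in control cells and rose by 49.0 points, but by 2.25 when the median of its peaks was used. A region 1450 bp from Rgr had 11.7 and 6.56 and rose by 48.6 points.

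The falls were larger. At chr4:26926099-26926420, 579361 bp from the nearest gene, the signal value was 6.999 in distal memory and 17.8 in control cells, a difference of -69.1 points. A region on chromosome 12 had 8.08 and 18.4, a difference of -59.9 points, and a region on chromosome 1 had 8.61 and 19.6, a difference of -57.0, or of -16.7 with the median of its peaks. No fresh list held these 3 regions. A region 41156 bp from Trhr had 6.06 in distal memory and 13.3 in control cells, a difference of -57.7 points, and -20.3 with the median of its peaks. Outside the 4 regions set by rule, 2 falls were picked after their values were seen: the region 1276 bp from Ccl4, a chemokine gene, had 6.595 in distal memory and 13.2 in control cells, and that within Ptpn12, a tyrosine phosphatase gene, had 9.02 and 18.3. With the median of its peaks the difference at Ptpn12 was -11.4 points in place of -50.1.

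Genes were also ordered by the median rank change of their shared regions, a pattern looked for after the values were seen. Among 2141 genes with at least 5 shared regions, the median rank change of a gene lay between -6.72 and 6.37 points in the central 90%. Postn encodes periostin, a matrix protein of wounds, and its 7 shared regions had a median change of 16.2 points. The region 645 bp from Postn had a signal value of 19.1 in distal memory and 14.8 in control cells, and a region 43774 bp away had 11.9 and 8.32. Of the 7 Postn regions 4 rose, by 16.2 to 34.3 points, and the other changes were -2.02, -0.331 and -0.00959 points. Trp73 encodes p73, a relative of p63, and its 5 regions had a median change of 12.9 points, the largest being 24.4 at a region with 8.48 in distal memory and 6.05 in control cells. For Ifngr1, the interferon gamma receptor gene, the median was 11.8 points. For Itgb8, an integrin gene that activates TGF-beta, it was 11.5, with 5 of 6 regions up. The genes described here are a choice from the order, not its top. Others, such as Gfod1 with 15.8 points and Tbc1d19 with 15.1, had medians between those of Postn and Trp73.

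Other genes had shared regions of lower rank in distal memory cells. Fabp5, an epidermal fatty acid binding protein gene, had a median change of -11.4 points over 7 regions. A Fabp5 region 26337 bp from the gene had 10.6 in distal memory and 15.5 in control cells, and 1 of the 7 was higher in distal memory cells. Il1r1, the interleukin 1 receptor gene, had a median of -11.3, and the region 2538 bp inside the gene had 8.75 in distal memory and 13.6 in control cells. Slc2a3, a glucose transporter gene, had a median of -11.5. The changes ran from -33.5 to 10.9 points over the Il1r1 regions and from -18.9 to 6.54 over the Slc2a3 regions. The lowest median was -18.5, of Rmdn2, and Mmadhc, a gene of cobalamin metabolism, had -16.0 with 0 of 5 regions up. Further genes, such as Ccdc192 with -16.8 points and Smco4 with -12.5, also had lower medians than Fabp5, Il1r1 and Slc2a3. Ranked by −log10 p, the median was 6.02 for Postn, 5.58 for Ifngr1, -7.17 for Slc2a3, -12.1 for Rmdn2 and -10.4 for Mmadhc.

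**Figure D4:**
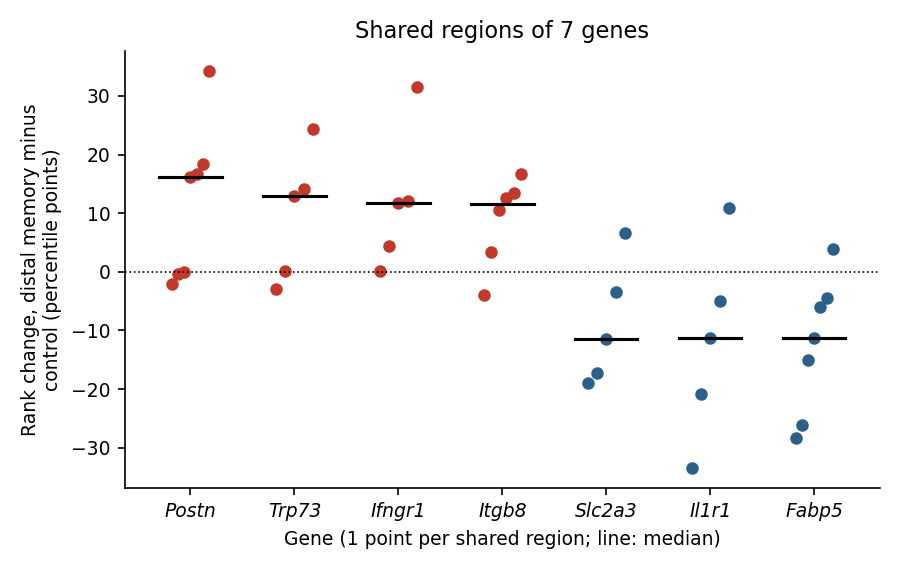
Rank change of each shared region (distal memory minus control, percentile points) for 7 genes picked after their values were seen; points are regions, horizontal bars medians, and red and blue mark genes with a median above and below 0. The medians run from 16.2 for Postn to -11.5 for Slc2a3, and each gene has regions near 0 beside those that moved.

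The fresh epidermis lists, which took no part in defining gained and lost regions, held a smaller share of both than of shared regions. In the homeostasis list 17.7% of gained and 19.8% of lost regions were present, against 54.7% of shared regions. In the list of 8 weeks after the first wound, the time point that the titles of the cultures name, 16.9% of gained [15.7 to 18.2] and 18.6% of lost regions [17.9 to 19.3] were present, against 53.3% of shared ones. In the list of 1 week after the first wound the shares were 29.3% for gained, 30.7% for lost and 63.9% for shared regions, and in that of 1 week after the second wound 21.1%, 23.7% and 57.9%. In each wound list and in homeostasis the share of lost regions was a little above that of gained ones.

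The lists of vehicle, PRT4165 and UVB, which are longer, held 48.9%, 46.4% and 52.2% of gained regions and 47.5%, 45.3% and 51.0% of lost regions. The list of wound with UVB held 41.3% of gained and 42.3% of lost regions. Of the gained regions 38.0% were in no fresh list and 9.01% in all 8. Of the lost regions 40.2% were in no fresh list and 11.7% in all 8, against 18.9% and 45.8% of shared regions.

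**Figure D5:**
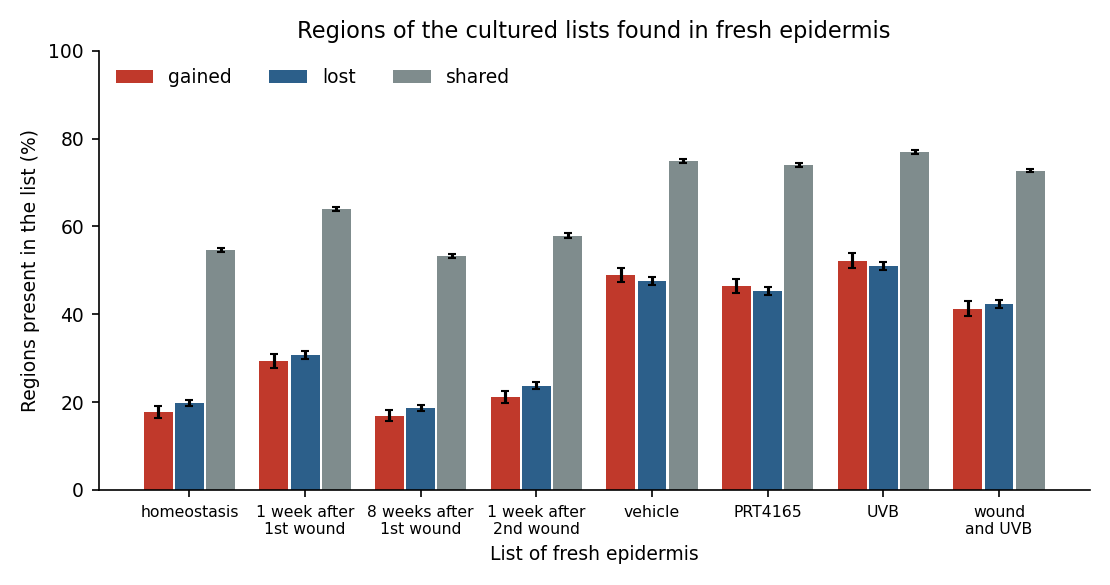
Share of gained (red), lost (blue) and shared (grey) regions that were present in each of the 8 lists of fresh epidermis, with Wilson 95% intervals for counting error. In every list gained and lost regions lie close together, 16.9 and 18.6% at 8 weeks and 52.2 and 51.0% with UVB, and below shared regions, 53.3 and 76.9%.

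The lower presence of gained and lost regions in fresh epidermis remained among regions of like signal value. Width was not matched, and gained and lost regions are narrower than shared ones, which can lower a 1 bp overlap. In the weakest quartile of the distal memory list, 38.6% of gained regions [36.7 to 40.6] and 23.9% of shared ones [23.0 to 24.8] were in no fresh list. In the weakest quartile of the control list, the shares were 41.4% for lost [40.2 to 42.5] and 24.0% for shared regions [23.0 to 25.1]. In the strongest quartile of the control list, 23 of 51 lost regions, 45.1%, were in no fresh list, against 14.6% of shared regions. Of shared regions in no fresh list, 2.10% rose and 2.96% fell by 25 points or more in distal memory cells, against 0.659% and 0.878% of those in all 8 fresh lists. Between these ends the shares showed no steady order, with 2.51% rising among regions in 3 fresh lists. The shares gained were 14.2% of distal memory regions in no fresh list, 16.3% of those in 2 and 1.59% of those in all 8, and the shares lost were 37.8%, 36.5% and 6.77% of control regions. These splits were not made within signal quartiles, and the median signal value of distal memory regions was 8.38 for those in no fresh list and 11.7 for those in all 8.

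The changes in culture were set beside those in fresh epidermis at 8 weeks after the first wound against homeostasis, a comparison that shares no library with the cultures. In fresh epidermis 6195 regions were gained and 6712 were lost at 8 weeks. Of the regions gained in fresh epidermis, 185 were gained in distal memory cells (2.99%) and 582 lost (9.39%), while 52.3% were in neither cultured list. Of the regions lost in fresh epidermis, 213 were gained in distal memory cells (3.17% [2.78 to 3.62]) and 713 lost (10.6% [9.91 to 11.4]). The shares gained in culture, 2.99% [2.59 to 3.44] of regions gained in fresh epidermis and 3.17% of regions lost there, have overlapping intervals. Of the regions shared in fresh epidermis, 1.32% were gained and 5.53% lost in distal memory cells. Seen from the cultures, 5.38% of the gained regions were gained and 6.16% were lost in fresh epidermis, and of the lost regions 4.91% were gained and 6.01% lost. Regions shared by the cultures had like shares, with 4.99% gained and 6.41% lost in fresh epidermis.

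Among regions gained in both settings, the strongest in distal memory cells lay 22508 bp from Sema5a, a semaphorin gene. It had a signal value of 11.98. Next came a region within Mkln1 with 10.9. A region on chromosome 5 with no gene end within 100 kb had 10.8, and a region within the DNA repair gene Mgmt had 10.7. Among those lost in both, the strongest in control cells lay 23286 bp from Tcf7l2, a transcription factor gene of the Wnt pathway, with 14.4. The lost region at the start of Ccdc39, with 12.4, was also lost in fresh epidermis at 8 weeks. Over the 19581 regions present in all 4 lists, the rank changes in culture and in fresh epidermis correlated across regions with a Spearman rho of -0.0153, a description with no test. Of 150 such regions that rose by 25 points or more in distal memory cells, 70 also had a higher rank at 8 weeks in fresh epidermis. Of 181 that fell, 73 also had a lower rank there. The shares of all 19581 regions with a higher or a lower rank at 8 weeks were not counted, so both counts lack a background.

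The difference between the cultures was spread over the genome. On the autosomes and X, 6.62 to 9.22% of distal memory regions of a chromosome were gained and 19.9 to 24.8% of control regions were lost. The median rank change of shared regions lay between -0.21 and 0.65 points on every chromosome measured. Ddx3y, Uty and Eif2s3y on the Y chromosome had regions at gene ends in both lists.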

How the data were processed

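ATAC-seq libraries were made from sorted cells with Tn5 transposase and NexteraXT indexing, per the labels' protocols. Per the submitters' processing notes, the build is mm10. The steps from reads to peaks, any shift of reads for Tn5 and the read depth were not given in the sources used here, so the depth behind a peak is unknown. The authors deposited 1 list of peaks per group, made from both libraries and kept for reproducibility between them, going by the list names. The authors' score per peak was at least 540, the deposited −log10 p at least 2.00, and the deposited signal value is the authors' measure of enrichment, whose reference is not stated. Signal values rank regions within a list, and where those of both lists are given side by side, they are the authors' values, not amounts put on a common scale here.

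Overlapping peaks of the autosomes (1 to 19), X and Y were joined into regions. Each region took the signal value and summit of its strongest peak. Counts of gained and lost regions were the same with bedtools 2.31.1. In simulated lists made from the control list, 3000 of 3000 removed and 2000 of 2000 added regions were found, and 188 of 189 raised regions. The simulation left region edges as they were and held no noise or difference in depth. It therefore checks the counting alone, not how well real differences are found. Regions were assigned to the shortest protein-coding gene over the summit, or else to the nearest gene end within 100 kb, with RefSeq genes of GRCm38.p6 (given without strand or exons, so exons, introns and UTRs were not separated). Genes whose nearby shared region misses the 1 kb window in 1 list (68 genes) were counted apart, as were 203 promoters. Of 464 genes on 27 lists, 462 were found. No genome sequence was used, so motifs were searched in promoters alone.

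The members and lists were chosen with earlier results of these data known. Named genes are those with the 8 highest and 8 lowest counts of gained minus lost regions (predicted genes left out), up to 3 members with the largest balance of each list, the 3 strongest gained and lost regions, the 4 strongest gene ends open in 1 list alone, each way, the 4 largest rank rises and falls among regions above the median in either list, and the lineage genes; most of them are given. Any other gene named was picked with its values known. Alternatives were a 50% overlap, lists cut to equal length or to their strongest 50% (set against the cut or the whole other list), autosomes, other summaries of a region, gene distances up to 20 kb and a 500 bp window at gene ends. Gene medians of rank change, signal quartiles and the split by fresh lists were added after the data were seen. The software was pandas 2.3.3, numpy 2.4.6 and scipy 1.17.1 under Python 3.11.15, with matplotlib 3.10.9 for figures.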

Additional observations from a re-analysis of the deposited data

How the results depend on the processing

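Each group has 1 list from both libraries, so no replicate could be left out and no result has a spread between replicates. No paired analysis was possible because no values per library were used. The reported counts were 3473 gained and 12005 lost regions. A 50% overlap of both regions gave 5250 gained regions, the strongest 50% of each list 1072 gained and 5282 lost, lists of equal length 7069 and 7334, and the strongest 50% against the whole other list 133 and 974. With lists of equal length, 3288 genes had more gained and 3426 more lost regions, and 5 gene lists had more lost than gained regions. Rank falls numbered 445 by −log10 p. With the median of the peaks of a region, 4021 regions rose and 3863 fell. With a 50% overlap, 13.3% of gained, 15.4% of lost and 48.4% of shared regions were in the list of 8 weeks after the first wound, and 40.1%, 40.2% and 68.4% in the vehicle list. Among the results that answer a comparison, 13 other values stayed within 1.5 times or within their interval. The rank changes of the 10 named regions and 9 named genes run under the rank alternatives kept their sign. Of 117 genes with the highest or lowest balances or, on a list, a balance of at least 2 in size, 19 turned from more lost to more gained regions with lists of equal length: to a balance of 3 for Grhl3, Myc, Klf6 and Smad7, of 2 for Runx1, Nfkbia, Tgfb2, Wnt7b, Pdgfa and Lama5, and of 1 for Plau, Bmp7, Lrp5, Notch1, Maml2, Itgb6, Gadd45a, Slc2a1 and Pfkfb3. None of them turned with genes within 20 kb. Some balances shrank at that distance, as for Osbpl8 with 1 gained region and Rybp with 1 lost. For lists of equal length the move comes by construction, since the weakest control regions are left out. For the other alternatives the cause was not tested. The unknown read depth limits what a missing region shows: it was not found at the depth of that list, which is not the same as closed.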
